A study of Mus musculus with 6 samples.

Results

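The genes described here are 33 mouse genes of cholesterol synthesis and sterol handling. They comprise the enzymes of the pathway, its regulators, and the genes of sterol uptake, transport, storage and efflux. They were chosen by name, as the probe sets that carry exactly 1 gene symbol, that symbol being on the list. Of the 33 genes, 30 were measured, through 32 probe sets, among 19938 genes tested in all. Acat2, Nr1h2 and Soat1 had no probe set of their symbol alone and were not analysed here.

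The values come from Affymetrix microarrays of total RNA from 3 populations of conventional dendritic cells (cDC) sorted from the spleen of wild-type (WT) mice. Dendritic cells are the antigen-presenting cells that prime T cells. One was CD24+ cDC1. The others were 2 kinds of cDC2, sorted as CD24+CD172a+ cDC2 or as CD24-CD172a+ cDC2. Each population had 2 arrays, 6 in all. CD24 is a glycosylated surface protein, and CD172a, encoded by Sirpa, is a receptor of myeloid cells for CD47. No group carried a treatment or an altered allele according to the labels, which give neither age nor strain. Nor do they state if paired arrays hold RNA of separate mice, so p-values measure the spread between these arrays, which may be technical. The sort markers followed the labels: Cd24a had a mean log2 intensity of 11.74 in cDC1 and 10.88 in CD24+CD172a+ cDC2, with CD24-CD172a+ cDC2 at 8.83. Sirpa stood at 5.18, 10.14 and 10.19 in the same order, and Xcr1, the chemokine receptor that defines cDC1, at 10.71, 5.12 and 5.86.

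Cholesterol is built from acetyl-CoA in a long chain of reactions. The mevalonate branch makes 5-carbon isoprenoid units and joins them into farnesyl diphosphate, and the sterol branch turns farnesyl diphosphate into squalene, lanosterol and finally cholesterol. When sterol in the endoplasmic reticulum is low, SCAP carries the precursors of the SREBP transcription factors to the Golgi, where they are cut and released to switch on the pathway genes. When sterol is plentiful, the INSIG proteins hold SCAP back, and oxysterols activate the liver X receptors, which switch on efflux transporters. Cells also take up cholesterol in lipoproteins, which NPC1 and NPC2 release from the lysosome.

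SREBP proteins bind sterol regulatory elements in the promoters of these genes, usually together with NF-Y, which binds CCAAT. The 250 bases before the annotated start were therefore searched on both strands for the sterol regulatory element TCACNCCAC, for CCAAT and for the E-box CACGTG. The RefSeq promoter table, on GRCm38.p6, held a window for 27 of the 33 genes. The sterol regulatory element as spelled here was found in 1 of the 27 genes, Hmgcs1 (3.70%), and in 1.22% of all 27025 genes with a window. CCAAT was found in 21 of the 27 (77.8%), against 37.5% of all genes. CACGTG was found in 6 of the 27 (22.2%), in Hsd17b7, Sc5d, Dhcr7, Insig1, Scap and Abca1, against 6.86% of all genes. A gene was counted where any of its windows matched, and the 27 genes had 38 windows, against 32851 for all genes. By window, CCAAT was found in 22 of the 38 and in 33.8% of all windows. CACGTG was found in 6 of the 38 and in 6.02% of all windows. A match is a description of these letters, not a bound site. The lines below show the Hmgcs1 window, the one with both the sterol regulatory element and CCAAT. They also show the last 100 bases before the start of 3 other genes called against cDC1 (Idi1, higher, and Mylip and Npc2, lower). Each reads 5′ to 3′ in the direction of the gene. Capitals mark the sterol regulatory element and each CCAAT, which reads ATTGG where it lies on the other strand.
Hmgcs1, chr13:119690101-119690350, plus strand: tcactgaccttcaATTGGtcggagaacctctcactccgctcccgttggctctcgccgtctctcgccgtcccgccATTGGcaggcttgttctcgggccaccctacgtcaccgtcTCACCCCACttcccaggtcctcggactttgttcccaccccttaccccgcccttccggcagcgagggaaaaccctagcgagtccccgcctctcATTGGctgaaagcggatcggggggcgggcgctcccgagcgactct
Idi1, chr13:8885506-8885605, plus strand: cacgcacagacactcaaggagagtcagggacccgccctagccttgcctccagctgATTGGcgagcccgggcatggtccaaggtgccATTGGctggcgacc
Mylip, chr13:45389642-45389741, plus strand: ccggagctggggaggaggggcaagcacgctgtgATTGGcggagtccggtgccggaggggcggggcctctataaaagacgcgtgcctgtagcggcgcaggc
Npc2, chr12:84773113-84773212, minus strand: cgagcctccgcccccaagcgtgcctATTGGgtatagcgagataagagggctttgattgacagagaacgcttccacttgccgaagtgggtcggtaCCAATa
In the Hmgcs1 window the sterol regulatory element lies 137 bases before the start, among 3 reversed CCAAT. Idi1 holds 2 reversed CCAAT in its stretch, Mylip holds 1, and Npc2 holds 1 on each strand. Pmvk and Insig2, also called against cDC1, are not printed. Neither of the 2 Pmvk stretches of 100 bases held a match. Of the 3 Insig2 stretches, the one at chr1:121332590-121332689 held 1 CCAAT on each strand, and the others held none.

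Differences are log2 intensities of the first population minus the second, each with its standard error (SE) from 1 limma fit over the 6 arrays. A gene is called where its p-value, Benjamini-Hochberg adjusted over all 19938 genes, is under 0.05. The 3 comparisons share arrays, so they are not independent of one another. The SE of a member's difference ranged from 0.125 to 0.265 on the log2 scale, with 2 arrays a group, whose number limits the precision. The median intensity of an array lay between 29.5 and 30.6.

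Between the cDC2 populations, 0 of the 30 members were called higher and 1 was called lower in CD24+CD172a+ cDC2. Over all genes tested, 0.808% were called higher and 0.652% lower. The 1 called member was Fdft1, the squalene synthase. At an unadjusted limma p under 0.05, 1 member was higher (Npc1) and 10 were lower, against 7.89% and 6.15% of all genes. Another scaling changed the split over all genes from 161 higher and 130 lower to 213 and 111 with median centring and to 126 and 160 with cyclic loess.

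Against cDC1 the members differed more. CD24+CD172a+ cDC2 had 3 members called higher and 5 called lower, where the shares over all genes were 7.11% and 6.52%. CD24-CD172a+ cDC2 had 9 called higher and 6 called lower, where the shares over all genes were 6.83% and 8.91%. Most members are bright probe sets, and bright genes were called more often. Among the 9969 genes in the brighter part of the array (at or above the median gene), 12.5% and 11.4% were called higher and lower in CD24+CD172a+ cDC2, and 2 and 5 of the 25 members there. In CD24-CD172a+ cDC2 these shares were 11.5% and 16.1%, and 7 and 6 of the 25 members were called. In all, 16 of the 30 members were called in at least 1 comparison. Of these, 7 were called against cDC1 in both cDC2 populations with the same sign, 8 in CD24-CD172a+ cDC2 but not in CD24+CD172a+ cDC2, and 1 the other way round. No matching shares over all genes are given for these combined counts, so they only describe the list. A call in one population and not in the other does not show that they differ, and the direct comparison called Fdft1 alone.

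**Figure D1:**
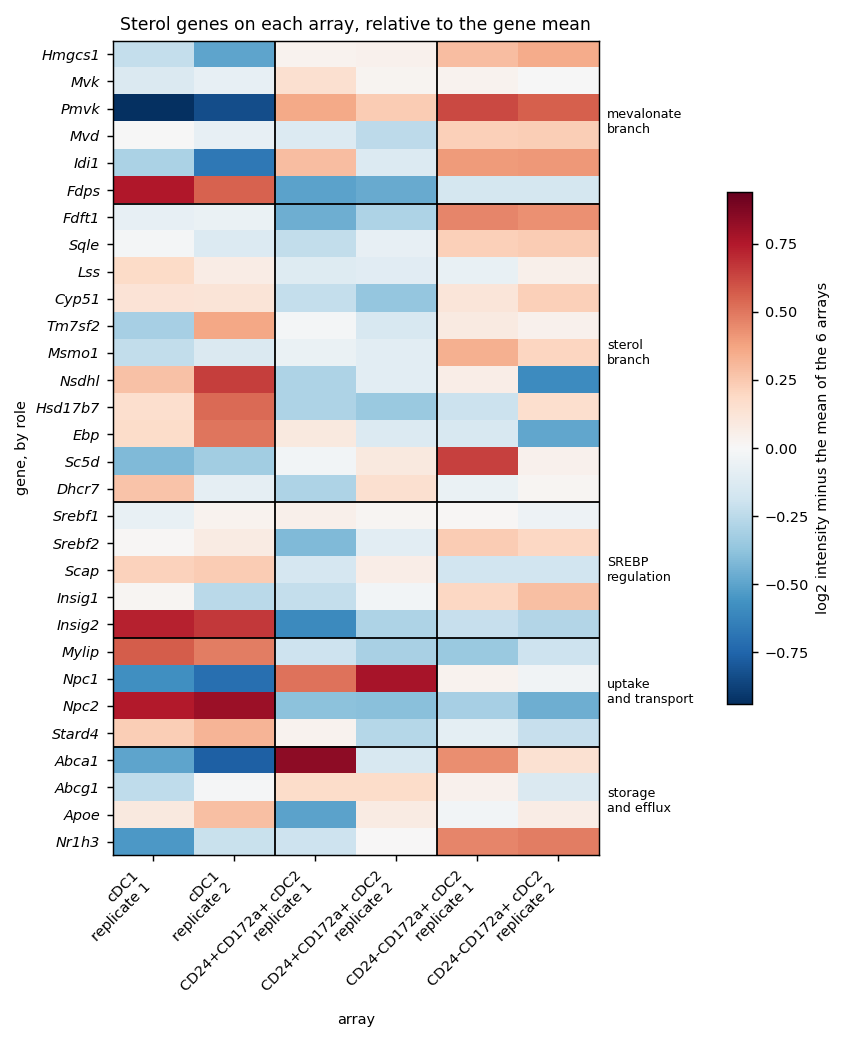
Log2 intensity of the 30 measured sterol genes (vertical axis, by role) on each of the 6 arrays (horizontal axis), shown as the difference from the gene's mean over the arrays (colour, log2). Fdps, Insig2, Mylip and Npc2 are highest on both cDC1 arrays, Pmvk, Idi1 and Npc1 are lowest there, and most synthesis enzymes are lighter or bluer on the CD24+CD172a+ cDC2 arrays than on the CD24-CD172a+ cDC2 arrays.

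The mevalonate branch had 6 measured genes. Against cDC1, 3 were called higher and 1 lower in CD24-CD172a+ cDC2, beside 6.83% and 8.91% of all genes. In CD24+CD172a+ cDC2, 1 was called higher and 1 lower, beside 7.11% and 6.52% of all genes. The largest difference was in Pmvk, phosphomevalonate kinase. Its log2 intensity was 6.75 and 6.86 on the cDC1 arrays, 8.05 and 7.93 on the CD24+CD172a+ cDC2 arrays, and 8.31 and 8.25 on the CD24-CD172a+ cDC2 arrays. Every cDC2 array lay above both cDC1 arrays. Pmvk was 2.27-fold higher in CD24+CD172a+ cDC2 than in cDC1 (log2 difference 1.18, SE 0.13, adjusted p = 9.99e-05). In CD24-CD172a+ cDC2 it was 2.78-fold higher (1.48, SE 0.13, adjusted p = 1.91e-05).

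Fdps, farnesyl diphosphate synthase, which closes the branch, went the other way. It read 7.98 and 7.77 in cDC1, 6.72 and 6.75 in CD24+CD172a+ cDC2, and 7.05 and 7.05 in CD24-CD172a+ cDC2. No cDC2 array reached the level of either cDC1 array. Fdps was 2.20-fold lower in CD24+CD172a+ cDC2 (log2 difference -1.14, SE 0.13, adjusted p = 0.000147) and 1.77-fold lower in CD24-CD172a+ cDC2 (-0.82, SE 0.13, adjusted p = 0.00139). Pmvk and Fdps thus differed from cDC1 in opposite directions within the same branch.

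Hmgcs1, the HMG-CoA synthase at the head of the branch, read 6.45 and 6.17 in cDC1, 6.70 and 6.71 in CD24+CD172a+ cDC2, and 6.96 and 7.02 in CD24-CD172a+ cDC2. The groups formed 3 separate steps with cDC1 lowest. It was 1.60-fold higher in CD24-CD172a+ cDC2 than in cDC1 (log2 difference 0.68, SE 0.14, adjusted p = 0.00627), and the call ended without cDC1 replicate 2 (0.54, adjusted p = 0.0635). The difference of CD24+CD172a+ cDC2 from cDC1, 0.40, was not called (adjusted p = 0.0918), except with genes under the median left out (adjusted p = 0.0463).

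Idi1, the isomerase that interconverts the 5-carbon units, read 6.48 and 6.10 in cDC1, 7.07 and 6.65 in CD24+CD172a+ cDC2, and 7.17 and 7.18 in CD24-CD172a+ cDC2. It was 1.85-fold higher in CD24-CD172a+ cDC2 than in cDC1 (log2 difference 0.89, SE 0.17, adjusted p = 0.00538), and 0.70 with an adjusted p of 0.0538 without cDC1 replicate 2. In CD24+CD172a+ cDC2 the difference was 0.57 (adjusted p = 0.0569). This second difference depended on single arrays. It was 0.76 (adjusted p = 0.0449) without cDC1 replicate 1 and 0.78 (adjusted p = 0.0398) without CD24+CD172a+ cDC2 replicate 2, but 0.38 (adjusted p = 0.346) without cDC1 replicate 2 and 0.36 (adjusted p = 0.366) without CD24+CD172a+ cDC2 replicate 1. Of 9 other settings with all arrays of the compared groups, 5 called it. A dimmer second probe set of Idi1 gave 0.90 and 0.54 for the same comparisons.

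Mvd, the decarboxylase of the branch, had the largest difference between the cDC2 populations among these 6 genes. Its arrays read 6.13 and 6.06 in cDC1, 6.01 and 5.89 in CD24+CD172a+ cDC2, and 6.36 and 6.36 in CD24-CD172a+ cDC2. CD24+CD172a+ cDC2 lay lowest, with a difference of -0.41 from CD24-CD172a+ cDC2 (SE 0.13, adjusted p = 0.162). Mvk, mevalonate kinase, lay between 5.27 and 5.56 on all 6 arrays and was called in no comparison.

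The sterol branch had 11 measured genes. Against cDC1, 3 were called higher and 2 lower in CD24-CD172a+ cDC2, beside 6.83% and 8.91% of all genes. In CD24+CD172a+ cDC2, 1 was called, lower, beside 6.52% of all genes called lower there. Fdft1 commits farnesyl diphosphate to sterols. It read 6.29 and 6.30 in cDC1, 5.91 and 6.08 in CD24+CD172a+ cDC2, and 6.82 and 6.79 in CD24-CD172a+ cDC2. The groups did not overlap, and CD24+CD172a+ cDC2 was lowest. Fdft1 was 1.76-fold lower in CD24+CD172a+ cDC2 than in CD24-CD172a+ cDC2 (log2 difference -0.81, SE 0.13, 95% interval -1.10 to -0.53, adjusted p = 0.0151). It was 1.42-fold higher in CD24-CD172a+ cDC2 than in cDC1 (0.51, SE 0.13, adjusted p = 0.0205), while CD24+CD172a+ cDC2 differed from cDC1 by -0.30 without a call (adjusted p = 0.175).

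Both Fdft1 calls ended whenever 1 of the compared arrays was left out. Between the cDC2 populations the adjusted p was then 0.150 without CD24+CD172a+ cDC2 replicate 1, 0.0799 without its replicate 2, 0.0768 without CD24-CD172a+ cDC2 replicate 1 and 0.0647 without its replicate 2, with differences from -0.90 to -0.73. Against cDC1 it was 0.107 without cDC1 replicate 1, 0.0874 without its replicate 2, 0.0804 without CD24-CD172a+ cDC2 replicate 1 and 0.0645 without its replicate 2. A dimmer second probe set of Fdft1 gave -0.73 between the cDC2 populations (adjusted p = 0.243 over probe sets), and the mean of both gave -0.77 (adjusted p = 0.0651) there and 0.53 (adjusted p = 0.0708) for CD24-CD172a+ cDC2 against cDC1.

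Sc5d, the sterol C5-desaturase late in the branch, read 6.61 and 6.70 in cDC1, 7.01 and 7.12 in CD24+CD172a+ cDC2, and 7.67 and 7.07 in CD24-CD172a+ cDC2. All cDC2 arrays lay above cDC1. It was 1.64-fold higher in CD24-CD172a+ cDC2 than in cDC1 (log2 difference 0.71, SE 0.18, adjusted p = 0.0235). The call ended without CD24-CD172a+ cDC2 replicate 1, the higher of the pair (0.41, adjusted p = 0.143), and without either cDC1 array (adjusted p = 0.132 without replicate 1 and 0.0759 without replicate 2).

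Msmo1, the methylsterol monooxygenase that takes off the C4 methyl groups, read 6.23 and 6.33 in cDC1, 6.40 and 6.37 in CD24+CD172a+ cDC2, and 6.80 and 6.66 in CD24-CD172a+ cDC2. CD24-CD172a+ cDC2 was 1.37-fold above cDC1 (log2 difference 0.45, SE 0.13, adjusted p = 0.0369). This call ended without any 1 of the 6 arrays, with adjusted p of 0.203 and 0.0945 without cDC1 replicates 1 and 2, 0.164 and 0.0611 without CD24-CD172a+ cDC2 replicates 1 and 2, and 0.0583 without either CD24+CD172a+ cDC2 array.

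Nsdhl, Hsd17b7 and Ebp, which act in the C4 demethylation and double-bond shifts of the sterol ring, were highest in cDC1. Nsdhl read 6.94 and 7.31 in cDC1, 6.38 and 6.57 in CD24+CD172a+ cDC2, and 6.73 and 6.08 in CD24-CD172a+ cDC2. It was 1.65-fold lower in CD24-CD172a+ cDC2 than in cDC1 (log2 difference -0.72, SE 0.21, adjusted p = 0.0402), with -0.66 in CD24+CD172a+ cDC2, near the threshold (adjusted p = 0.0684). That second difference was called in 3 of 9 other settings, among them the fit of the 2 compared groups alone (adjusted p = 0.0223), and in 0 of the 4 fits that left out a compared array. The 2 CD24-CD172a+ cDC2 arrays were far apart, and without replicate 2 the difference was -0.40 (adjusted p = 0.243). The call in CD24-CD172a+ cDC2 also ended without cDC1 replicate 1 (-0.91, adjusted p = 0.0506), without cDC1 replicate 2 (-0.54, adjusted p = 0.241) and without either CD24+CD172a+ cDC2 array (adjusted p = 0.0681), and with cyclic loess it was -0.63 (adjusted p = 0.0763).

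Hsd17b7 read 6.44 and 6.81 in cDC1, 5.98 and 5.93 in CD24+CD172a+ cDC2, and 6.07 and 6.43 in CD24-CD172a+ cDC2. It was the 1 gene called against cDC1 in CD24+CD172a+ cDC2 but not in CD24-CD172a+ cDC2, with a 1.59-fold lower level (log2 difference -0.67, SE 0.17, adjusted p = 0.0227) against -0.37 (adjusted p = 0.189). The call ended without cDC1 replicate 2 (-0.48, adjusted p = 0.184) and without CD24+CD172a+ cDC2 replicate 1 (adjusted p = 0.0997) or 2 (adjusted p = 0.131).

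Ebp, the sterol isomerase, read 5.89 and 6.22 in cDC1, 5.81 and 5.59 in CD24+CD172a+ cDC2, and 5.57 and 5.23 in CD24-CD172a+ cDC2. It was 1.58-fold lower in CD24-CD172a+ cDC2 than in cDC1 (log2 difference -0.66, SE 0.17, adjusted p = 0.0216). Without cDC1 replicate 2 this was -0.50 (adjusted p = 0.163), and without CD24-CD172a+ cDC2 replicate 2 it was -0.49 (adjusted p = 0.136). Unlike Fdft1 and Msmo1, Ebp had its lowest arrays in CD24-CD172a+ cDC2.

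The other sterol branch genes were called in no comparison in the fit of all genes. Cyp51, the lanosterol demethylase, read 7.03 and 7.02 in cDC1, 6.67 and 6.53 in CD24+CD172a+ cDC2, and 7.01 and 7.12 in CD24-CD172a+ cDC2. Its CD24+CD172a+ cDC2 arrays lay below the other 4, with differences of -0.42 from cDC1 (adjusted p = 0.0556) and -0.46 from CD24-CD172a+ cDC2 (adjusted p = 0.128). The first of these was called in 3 of 9 other settings (lowest adjusted p = 0.0260). Sqle, squalene epoxidase, differed by -0.39 between the cDC2 populations (adjusted p = 0.202). Lss, Tm7sf2 and Dhcr7, the lanosterol synthase and 2 sterol reductases, differed by at most 0.24 in absolute log2 value in every comparison.

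Across the 17 measured enzymes of both branches, 14 differences between the cDC2 populations were below 0, with a median of -0.30. Over all genes tested 52.5% were below 0, with a median of -0.013, and in the brighter part 40.4% were below 0. With cyclic loess 15 of the 17 were below 0, and with median centring 14. Only Fdft1 passed the test, so this is a description of the list and not a call. The enzymes' medians against cDC1 were -0.15 for CD24+CD172a+ cDC2 and, for CD24-CD172a+ cDC2, 0.12. Against cDC1 the enzymes did not share a direction. In CD24-CD172a+ cDC2, 6 of 17 were called higher (35.3%) and 3 lower (17.6%), beside 6.83% and 8.91% of all genes and 11.5% and 16.1% in the brighter part. In CD24+CD172a+ cDC2, 1 was called higher (5.88%) and 2 lower (11.8%), beside 7.11% and 6.52% of all genes and 12.5% and 11.4% in the brighter part. The shares called lower were thus close to those of the brighter part.

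**Figure D2:**
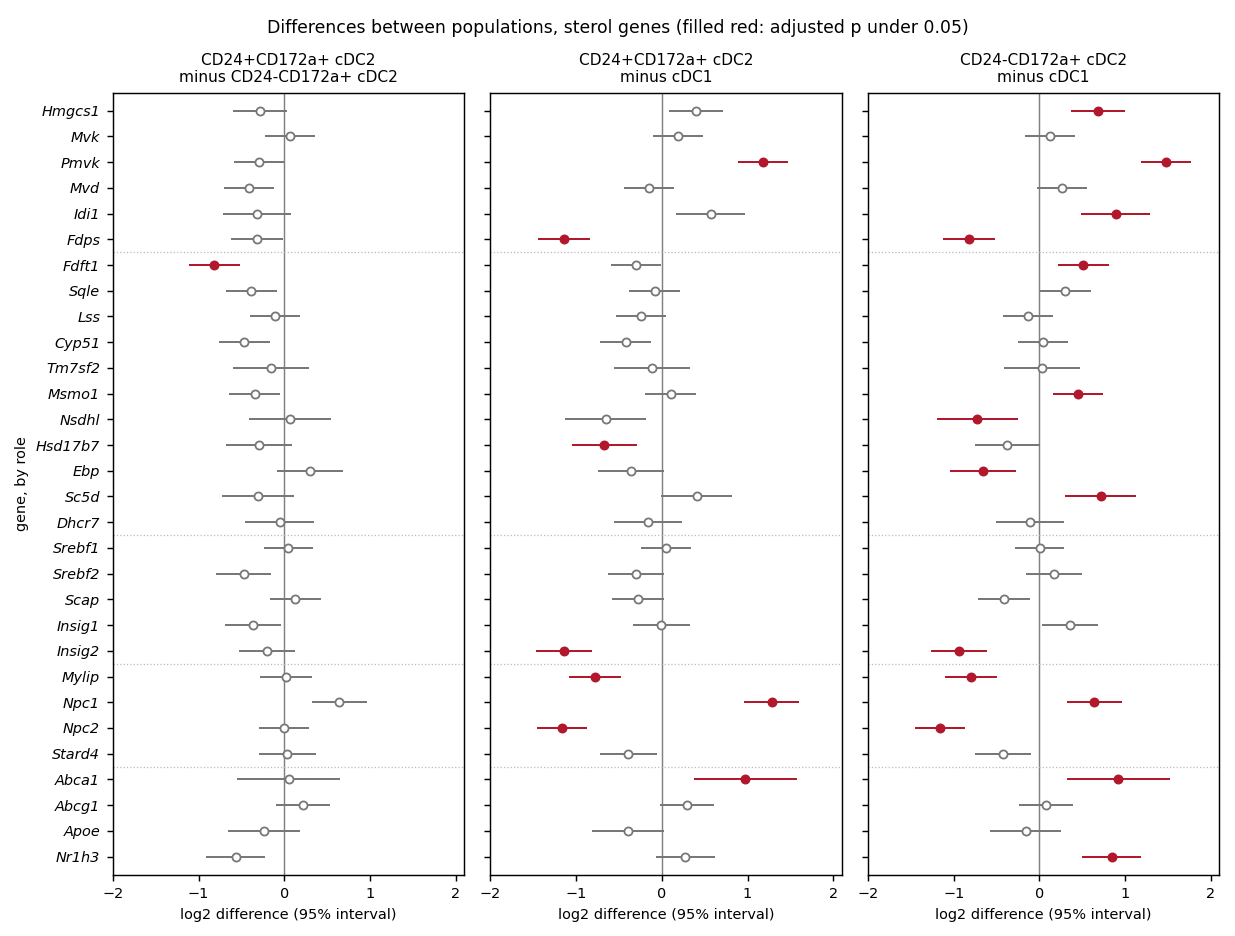
Log2 difference (horizontal axis) of each of the 30 measured sterol genes (vertical axis, by role) in the 3 comparisons, with the 95% interval from the limma fit as bars and calls at an adjusted p under 0.05 filled. Fdft1 is the one filled point between the cDC2 populations, and the points against cDC1 reach from -1.17 for Npc2 to 1.48 for Pmvk.

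Among the 5 regulators of SREBP processing, 1 was called against cDC1, lower in both cDC2 populations. The share of all genes called lower was 6.52% for CD24+CD172a+ cDC2, while for CD24-CD172a+ cDC2 it was 8.91%. In the brighter part these shares were 11.4% and 16.1%. Insig2, which retains SCAP in the endoplasmic reticulum, read 6.72 and 6.65 in cDC1, 5.39 and 5.70 in CD24+CD172a+ cDC2, and 5.77 and 5.71 in CD24-CD172a+ cDC2. Both cDC1 arrays lay well above the other 4. It was 2.21-fold lower in CD24+CD172a+ cDC2 (log2 difference -1.14, SE 0.14, adjusted p = 0.000268) and 1.92-fold lower in CD24-CD172a+ cDC2 (-0.94, SE 0.14, adjusted p = 0.000988). Its paralog Insig1, itself a known target of SREBP, was not called, with differences of -0.0048 (adjusted p = 0.992) and 0.36 (adjusted p = 0.137) from cDC1.

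The 2 SREBP genes were called in no comparison. Srebf2, which encodes the SREBP most tied to cholesterol synthesis, read 8.56 and 8.63 in cDC1, 8.13 and 8.45 in CD24+CD172a+ cDC2, and 8.79 and 8.74 in CD24-CD172a+ cDC2. CD24+CD172a+ cDC2 was lowest, with a difference of -0.47 from CD24-CD172a+ cDC2 (SE 0.14, adjusted p = 0.155). Srebf1, which encodes the SREBPs of fatty acid and cholesterol synthesis, lay between 5.97 and 6.09 on all 6 arrays. Its difference between the cDC2 populations was 0.049, with a 95% interval from -0.23 to 0.33. Scap, the escort of both, differed from cDC1 by -0.41 in CD24-CD172a+ cDC2 (adjusted p = 0.0608), while its difference in CD24+CD172a+ cDC2 was -0.28 (adjusted p = 0.231). The first was called in 3 of 9 other settings (lowest adjusted p = 0.0290).

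The genes of uptake and transport held some of the largest differences from cDC1, with 1 of 4 called higher and 2 lower in each cDC2 population. The shares over all genes were 7.11% and 6.52% in CD24+CD172a+ cDC2, and 6.83% and 8.91% in CD24-CD172a+ cDC2. Npc2, the soluble lysosomal protein that hands cholesterol to NPC1, read 10.46 and 10.52 in cDC1, 9.33 and 9.32 in CD24+CD172a+ cDC2, and 9.40 and 9.25 in CD24-CD172a+ cDC2. It was 2.24-fold lower in CD24+CD172a+ cDC2 (log2 difference -1.17, SE 0.13, adjusted p = 0.000104) and 2.24-fold lower in CD24-CD172a+ cDC2 (-1.16, SE 0.13, adjusted p = 0.00011). The cDC2 populations overlapped, with a difference of -0.0040 and a 95% interval from -0.29 to 0.28.

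Npc1, the membrane partner that exports cholesterol from the lysosome, went the opposite way. It read 6.40 and 6.27 in cDC1, 7.49 and 7.75 in CD24+CD172a+ cDC2, and 7.01 and 6.94 in CD24-CD172a+ cDC2. The 3 groups were apart, with CD24+CD172a+ cDC2 highest. Npc1 was 2.44-fold higher in CD24+CD172a+ cDC2 than in cDC1 (log2 difference 1.28, SE 0.14, adjusted p = 0.000101) and 1.56-fold higher in CD24-CD172a+ cDC2 (0.64, SE 0.14, adjusted p = 0.00961). The second of these ended without cDC1 replicate 2 (0.57, adjusted p = 0.0739) and without CD24-CD172a+ cDC2 replicate 1 (0.61, adjusted p = 0.0528).

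Between the cDC2 populations Npc1 differed by 0.64 (SE 0.14, 95% interval 0.33 to 0.95) and just missed the threshold (adjusted p = 0.0549). Of 9 other settings that kept the compared arrays, 5 called it, with the lowest adjusted p, 0.0297, above the median of gene values. None of the 4 fits that left out a compared array called it, and its value over all settings lay between 0.51 and 0.77, with an adjusted p up to 0.294.

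Mylip, the ubiquitin ligase that degrades lipoprotein receptors and is itself a target of the liver X receptors, read 6.94 and 6.85 in cDC1, 6.17 and 6.06 in CD24+CD172a+ cDC2, and 6.02 and 6.17 in CD24-CD172a+ cDC2. Both cDC2 populations lay below cDC1 and overlapped each other. It was 1.71-fold lower in CD24+CD172a+ cDC2 (log2 difference -0.78, SE 0.13, adjusted p = 0.00217) and 1.74-fold lower in CD24-CD172a+ cDC2 (-0.80, SE 0.13, adjusted p = 0.00175). Stard4, a cytosolic sterol carrier, differed by -0.39 and -0.43 from cDC1 without a call (adjusted p = 0.113 and 0.0732), though the second was called with genes under the median left out (adjusted p = 0.0376).

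Of 6 listed genes of storage and efflux, 4 were measured. Nr1h3, which encodes a liver X receptor, read 4.24 and 4.57 in cDC1, 4.58 and 4.78 in CD24+CD172a+ cDC2, and 5.24 and 5.26 in CD24-CD172a+ cDC2. CD24-CD172a+ cDC2 stood above the other 4 arrays. It was 1.79-fold higher there than in cDC1 (log2 difference 0.84, SE 0.15, adjusted p = 0.00291), and -0.57 separated the cDC2 populations without a call (SE 0.15, adjusted p = 0.109).

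Abca1, the transporter that loads cholesterol onto apolipoprotein A-I, read 4.13 and 3.86 in cDC1, 5.47 and 4.48 in CD24+CD172a+ cDC2, and 5.07 and 4.77 in CD24-CD172a+ cDC2. Its cDC1 arrays were close to 3.93, the 25th percentile of all gene values, so the cDC1 level may be little above background. Abca1 was 1.96-fold higher in CD24+CD172a+ cDC2 (log2 difference 0.97, SE 0.27, adjusted p = 0.0336) and 1.89-fold higher in CD24-CD172a+ cDC2 (0.92, SE 0.27, adjusted p = 0.0391). Its 2 CD24+CD172a+ cDC2 arrays had the largest SD of any member in that population, 0.701.

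Neither Abca1 call was stable. In CD24+CD172a+ cDC2 it ended without replicate 1, the higher of the pair (0.48, adjusted p = 0.215), and without cDC1 replicate 1 (adjusted p = 0.0755) or 2 (adjusted p = 0.185). In CD24-CD172a+ cDC2 it ended without its own replicate 1 (adjusted p = 0.194) or 2 (adjusted p = 0.0709), and without cDC1 replicate 1 (adjusted p = 0.0863) or 2 (adjusted p = 0.193). Without CD24+CD172a+ cDC2 replicate 2 the first difference was 1.47. Abcg1, which effluxes cholesterol to HDL, and Apoe, the lipoprotein component that carries it, were called in no comparison, and Apoe differed by -0.40 between CD24+CD172a+ cDC2 and cDC1 (adjusted p = 0.222). Without CD24+CD172a+ cDC2 replicate 2 the Apoe difference was -0.69 and called (adjusted p = 0.0386).

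**Figure D3:**
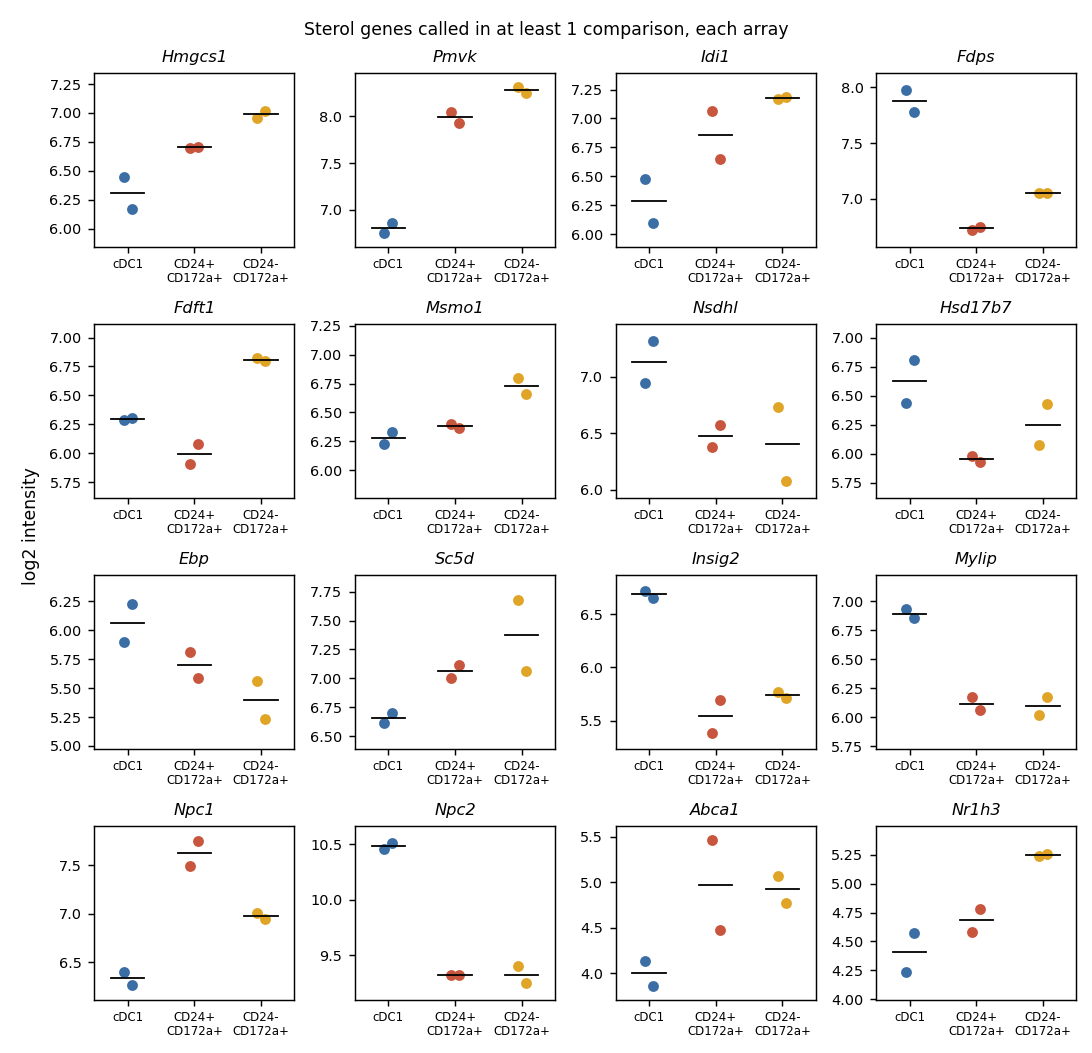
Log2 intensity (vertical axis, scaled for each gene) on each array of the 3 populations (horizontal axis) for the 16 sterol genes called in at least 1 comparison. Points are arrays and lines are group means. In every gene but Fdft1 both cDC1 arrays lie on the same side of all 4 cDC2 arrays, with the widest gaps in Pmvk, Fdps, Insig2, Mylip and Npc2. Abca1 in CD24+CD172a+ cDC2 and Sc5d and Nsdhl in CD24-CD172a+ cDC2 show pairs of arrays far apart.

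Of the calls against cDC1, those of Pmvk, Fdps, Insig2, Mylip and Npc2 in both cDC2 populations, of Npc1 in CD24+CD172a+ cDC2 and of Nr1h3 in CD24-CD172a+ cDC2 held in each of the 4 fits that left out 1 compared array. The median SD over the members between the arrays of a population was 0.0756, 0.107 and 0.0531 in cDC1, CD24+CD172a+ cDC2 and the CD24-CD172a+ population, and the same median over all genes was 0.0972, 0.0994 and 0.109. The median member thus varied less than the median gene in cDC1 and in CD24-CD172a+ cDC2, and about as much in CD24+CD172a+ cDC2. Single members varied far more, up to 0.477 for Tm7sf2 in cDC1 and 0.459 for Nsdhl in CD24-CD172a+ cDC2. Most members are bright, and the medians over all genes were not matched for brightness.

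A wider list of 54 genes of sterol and SREBP-driven lipid metabolism had 44 measured genes, and the other 10 were not analysed here. Between the cDC2 populations 1 was called, Lipa, which was lower in CD24+CD172a+ cDC2. Against cDC1, 10 were called higher and 8 lower in CD24+CD172a+ cDC2, and 8 higher and 11 lower in CD24-CD172a+ cDC2. As percentages of the 44 these were 22.7%, 18.2%, 18.2% and 25%, beside 7.11%, 6.52%, 6.83% and 8.91% over all genes and 12.5%, 11.4%, 11.5% and 16.1% in the brighter part. Their medians were 0.063, -0.035 and -0.041 in the order of the comparisons above.

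Lipa, the lysosomal acid lipase that frees cholesterol from lipoprotein esters, read 8.93 and 8.90 in cDC1, 7.60 and 7.59 in CD24+CD172a+ cDC2, and 8.17 and 8.19 in CD24-CD172a+ cDC2. The 3 groups were well apart. Its differences from cDC1 were -1.32 (SE 0.12, adjusted p = 3.16e-05) and -0.73 (SE 0.12, adjusted p = 0.00200). The difference between the cDC2 populations, -0.59, was at the threshold (SE 0.12, adjusted p = 0.0486). It lost the call with median centring (-0.55, adjusted p = 0.0568), with any 1 of the 4 cDC2 arrays left out (adjusted p = 0.231 and 0.229 without CD24+CD172a+ cDC2 replicates 1 and 2, and 0.149 and 0.146 without CD24-CD172a+ cDC2 replicates 1 and 2), and with either cDC1 array left out (adjusted p = 0.0824).

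Plin2, a coat protein of lipid droplets, had the largest difference of this list. It read 7.95 and 8.07 in cDC1, 6.31 and 6.28 in CD24+CD172a+ cDC2, and 6.07 and 5.89 in CD24-CD172a+ cDC2, and was 3.29-fold lower (adjusted p = 7.48e-06) and 4.08-fold lower (adjusted p = 2.13e-06). Scarb1, the HDL receptor SR-BI, was also lower than in cDC1, with differences of -0.94 and -1.21 (adjusted p = 0.00308 and 0.000577). So was Lpin1, a phosphatidate phosphatase, with -1.48 and -1.13 (adjusted p = 5.07e-05 and 0.000355).

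Higher than in cDC1 were Lrp1, an endocytic receptor for apolipoprotein E, Pltp, the phospholipid transfer protein, and Ugcg, the glucosylceramide synthase. Lrp1 differed by 1.43 and 1.36 (adjusted p = 2.42e-05 and 3.64e-05), with all 4 cDC2 arrays between 6.70 and 6.86 and cDC1 at 5.46 and 5.34. Pltp differed by 1.49 and 1.56 (adjusted p = 2.04e-05 and 1.46e-05). Ugcg differed by 1.39 and 0.93 (adjusted p = 4.45e-05 and 0.000802).

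Scd2, a stearoyl-CoA desaturase, was higher by 1.51 and 0.96 (adjusted p = 0.00158 and 0.0207), but its cDC1 arrays read 5.44 and 6.32. The call in CD24-CD172a+ cDC2 ended without cDC1 replicate 1 (0.52, adjusted p = 0.136) and without CD24-CD172a+ cDC2 replicate 1 (adjusted p = 0.0761) or 2 (adjusted p = 0.0873). Gramd1a, which moves cholesterol from the plasma membrane to the endoplasmic reticulum, was higher by 0.97 and 0.87 (adjusted p = 0.00643 and 0.0112). Both calls ended without cDC1 replicate 1 (adjusted p = 0.0574 and 0.0884), the first without CD24+CD172a+ cDC2 replicate 2 (adjusted p = 0.0747) and the second without CD24-CD172a+ cDC2 replicate 2 (adjusted p = 0.0846). Fads1, a fatty acid desaturase, was lower in CD24-CD172a+ cDC2 (-0.89, adjusted p = 0.00288), with -0.52 in CD24+CD172a+ cDC2, just short of the threshold (adjusted p = 0.0522). The latter was called in 6 of 9 other settings (lowest adjusted p = 0.0280) and in 0 of the 4 fits that left out a compared array.

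**Figure D4:**
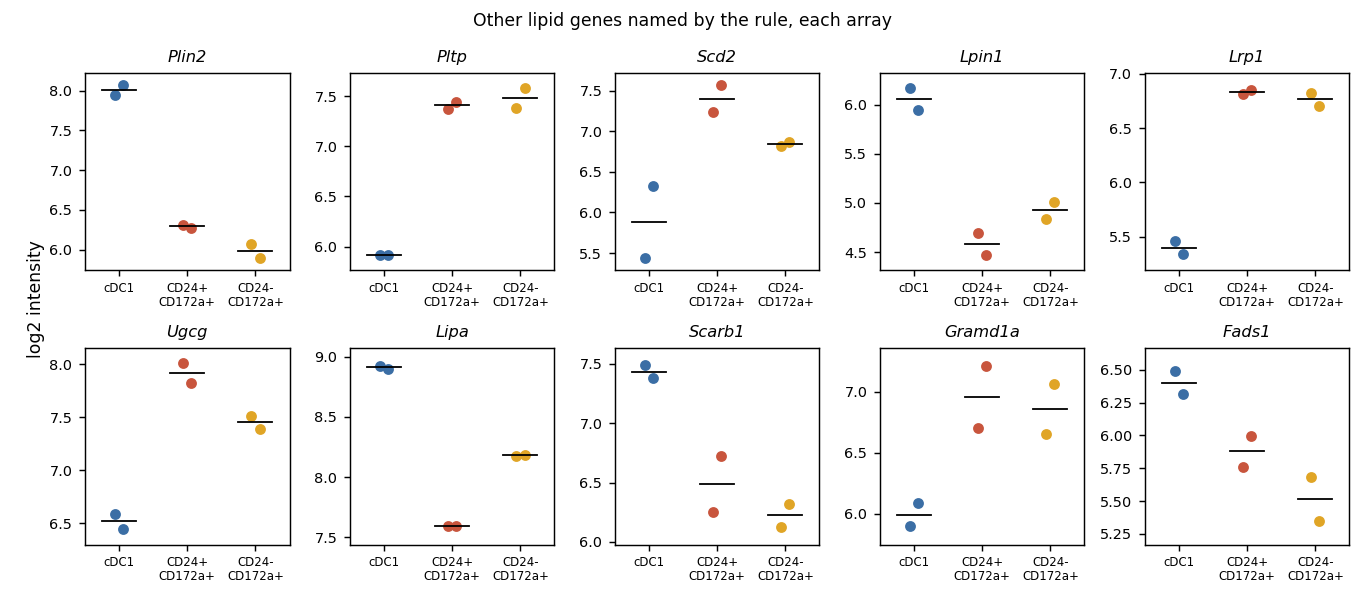
Log2 intensity (vertical axis, scaled for each gene) on each array of the 3 populations (horizontal axis) for the 10 other lipid genes that were among the 8 largest called differences of a comparison. Points are arrays and lines are group means. Plin2, Lpin1, Lipa and Scarb1 are highest in cDC1, Pltp, Lrp1 and Ugcg are lowest there, and the 2 cDC1 arrays of Scd2 are far apart.

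Markers of other states moved between the same populations. In bulk samples, fewer cells of a type and less RNA per cell cannot be told apart. Of all genes tested, 0.808% were called higher and 0.652% lower in CD24+CD172a+ cDC2 than in CD24-CD172a+ cDC2. Differences below 0 made up 52.5% of all genes in this comparison and 40.4% in the brighter part. Of 16 measured cell cycle genes, 9 were called in the comparison of the cDC2 populations, each higher in CD24+CD172a+ cDC2 than in CD24-CD172a+ cDC2, with summed intensities of 5028 to 5440 against 4049 to 4267 and 4198 to 4381 in cDC1. Of 13 measured macrophage and monocyte markers, 7 were called between them, each lower in CD24+CD172a+ cDC2 than in CD24-CD172a+ cDC2, with summed intensities of 3825 to 4431 against 6071 to 6291 and 6187 to 6203 in cDC1. Such sums are weighted to the brightest markers. The mean log2 intensity of the 13 markers was 6.56 to 6.71 in CD24+CD172a+ cDC2 and 7.28 to 7.29 in CD24-CD172a+ cDC2. In cDC1 it was 6.66 to 6.71, near the level of CD24+CD172a+ cDC2. The 7 were Spic (-1.56), Treml4 (-1.23), Adgre1 (-1.12), Lyz2 (-1.09), C1qb (-0.93), C1qa (-0.88) and C1qc (-0.82), while Mertk was below the 25th percentile of gene values in every population. Against cDC1, 6 macrophage and monocyte markers were called higher and 3 lower in CD24-CD172a+ cDC2, beside 6.83% and 8.91% of all genes. In CD24+CD172a+ cDC2, 3 were called higher and 5 lower, beside 7.11% and 6.52% of all genes. Among 5 measured markers of plasmacytoid dendritic cells, Siglech (1.08) and Tcf4 (0.91) were called higher in CD24+CD172a+ than in CD24-CD172a+ cDC2, with summed intensities of 602.8 to 631.0 against 386.1 to 401.8 and 545.2 to 555.2 in cDC1. Of 5 neutrophil markers, S100a8 (1.92) and S100a9 (1.88) were called higher there too, with sums of 207.4 to 230.7 against 106.3 to 116.0 and 118.7 to 126.1 in cDC1. The other 3 were not called between the cDC2 populations. Mpo went the other way (-0.56), and Ly6g and Elane differed by 0.066 and 0.016. Of 7 cDC1 markers, all lay below 0 in this comparison and Cadm1 was called lower (-0.84), with sums of 455.6 to 532.0 in CD24+CD172a+ cDC2, 611.9 to 617.9 in CD24-CD172a+ cDC2 and 6486 to 6949 in cDC1. The part of these lists in the differences of the sterol genes, such as those of Fdft1, Npc1, Nr1h3 and Lipa between the cDC2 populations, was not tested.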

How the data were processed

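Total RNA of 6 sorted samples was extracted on columns and labelled with the Affymetrix WT Pico kit, per the labels' protocols. The authors deposited 1 intensity per probe set and array on a linear scale, made in Affymetrix Expression Console with RMA, per the submitters' processing notes. Versions and annotation build are not given in the sources used here. Of 28853 probe sets, 21789 carried 1 gene symbol in the platform annotation and 1621 several, and 5443 carried none. Where a gene had several probe sets, the one with the highest mean over the 6 arrays was used, which left 19938 genes. Symbols matched the GRCm38.p6 gene table for 21698 probe sets and 0 were changed.

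Intensities were log2 transformed. R 4.3.3 and limma 3.58.1 fitted them (lmFit, then eBayes with no trend), all 6 arrays in 1 fit with 3 residual degrees of freedom (prior 7.31). P-values were adjusted by Benjamini-Hochberg over all genes, threshold 0.05, two-sided. Alternatives were every probe set tested, probe sets averaged per gene, dim genes left out at 2 limits, median centring, cyclic loess, a trended and robust variance, the 2 compared groups alone, the replicate number as a block, and each array left out. Promoters came from RefSeq (GRCm38.p6).

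The members and lists were chosen with earlier results of these data known, so no test was run over a list. Values on every array are given for members called in any comparison and for the member of each role with the largest difference. Other lipid genes are named where called, up to 8 a comparison by size of difference.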

Additional observations from a re-analysis of the deposited data

How the results depend on the processing

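No difference of a sterol gene that was called changed its sign under any alternative. Between the cDC2 populations, the number of members called higher in CD24+CD172a+ cDC2 went from 0 to 1 (Npc1) when genes under the 25th percentile or under the median were left out, with median centring, with a trended and robust variance, and with the replicate block (Npc1 adjusted p = 0.0494). The number called lower went from 1 to 0 with probe sets averaged per gene, and ranged from 0 to 1 over the fits that left out 1 array. For CD24+CD172a+ cDC2 against cDC1, the members' median of -0.16 was -0.28 with genes under the median left out, a filter that leaves fewer members. In CD24-CD172a+ cDC2 against cDC1 the 9 members called higher became 2 to 8 with 1 array left out, the lowest without cDC1 replicate 2, and the median of 0.059 became 0.054 to 0.17. For CD24+CD172a+ cDC2 against cDC1 the replicate block also called Idi1 (adjusted p = 0.0240) and, among the other lipid genes, Fads1 (0.0477). With the replicate block the other counts were 1 lower between the cDC2 populations, 4 higher and 5 lower for CD24+CD172a+ cDC2 against cDC1, and 9 and 6 for CD24-CD172a+ cDC2 against cDC1. The labels do not say if arrays with the same number share more than that number. The deviation of replicate 1 from its group mean correlated across genes at 0.0837, 0.0242 and 0.0838 for the 3 pairs of groups. Low values over all genes cannot settle whether the arrays were paired. With 2 arrays a group no array can be shown to stand apart from its group, and signal near background, as for Abca1 in cDC1, limits what the lower level can show. The cause of these changes was not tested.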
